A study of Mus musculus with 6 samples.

Results

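Transcription factors that mark the primed epiblast were followed in mouse induced pluripotent stem cells (iPSCs, cells reprogrammed to a state like that of embryonic stem cells) with and without serum response factor (SRF). The 7 genes, chosen by name, were Otx2, Pou3f1, Zic2, Zic5, Sox3, Sox4 and Sall2, and all 7 were found among the 24421 gene entries of the count table. The 3 SRF KO libraries came from iPSCs labelled SRFΔ/Δ, in which the Srf gene is deleted, and the 3 WT libraries from iPSCs labelled SRFf/f, which carry the intact conditional allele. Both were grown in medium with serum, a condition that the groups share. The labels name neither the Cre that made the deletion nor clones, nor whether replicates are separate cultures, so that p-values measure only the spread between these samples. The question was how the RNA levels of these factors differ without SRF.

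Pluripotent cells pass from a naive state, like that of the epiblast before implantation, to a primed state, like that of the epiblast after implantation, from which the germ layers arise. Cells kept in serum are known to move between states near the naive end. On this path OTX2 and POU3F1 are switched on early and act with the core factor OCT4 at enhancers of the primed state, and ZIC, SOX and SALL family factors are part of the network that is rewired. Most of these genes return later in the neural plate and the brain, and Otx2 is also a gene of the visceral endoderm, so that none of them is a marker of the primed epiblast alone.

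Total counts were between 26321602 and 36680156 per library, and no pair of replicate libraries agreed within sampling noise. The targeted gene followed the labels in all 6 libraries, with Srf at 34.5 ± 4.14 CPM (counts per effective library size, scaled by TMM, the trimmed mean of M values) in WT against 3.97 ± 0.707 CPM in SRF KO (SD, n = 3). WT replicate 2 stood apart from the other WT libraries on the second principal component, at -15.6 against 5.87 and 10.7, and results that rest on it are given with and without it. The cell type label was checked against 12 general pluripotency markers, all of which were detected in both groups. Pou5f1, the gene of OCT4, had means of 818 ± 52.4 CPM in WT against 773 ± 11.3 CPM in SRF KO (SD, n = 3). In bulk RNA, fewer cells that express a gene and less RNA per cell cannot be told apart.

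The 7 factors did not move together. The ZIC genes Zic2 and Zic5 fell to 51.4% and 54.1% of their WT levels, while Otx2, Sox3, Sox4 and Sall2 rose to between 132% and 151%, and Pou3f1 did not pass the test. Thus 4 of 7 were higher and 2 of 7 lower at an adjusted p under 0.05 by edgeR's quasi-likelihood test. Over all 14778 genes tested, 21.2% were higher and 21.3% lower, 42.4% in either direction. The groups did not overlap for 6 of the 7, against 52.7% of all genes, and the median log2 fold change of the 7 was 0.40 against -0.01 over all genes. The summed level of the 7 genes was between 125 and 133 CPM in the SRF KO libraries and between 119 and 141 CPM in the WT libraries. These sums overlapped through WT replicate 2 only, which had the lowest. Without it the WT sums were above all SRF KO sums.

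**Figure D1:**
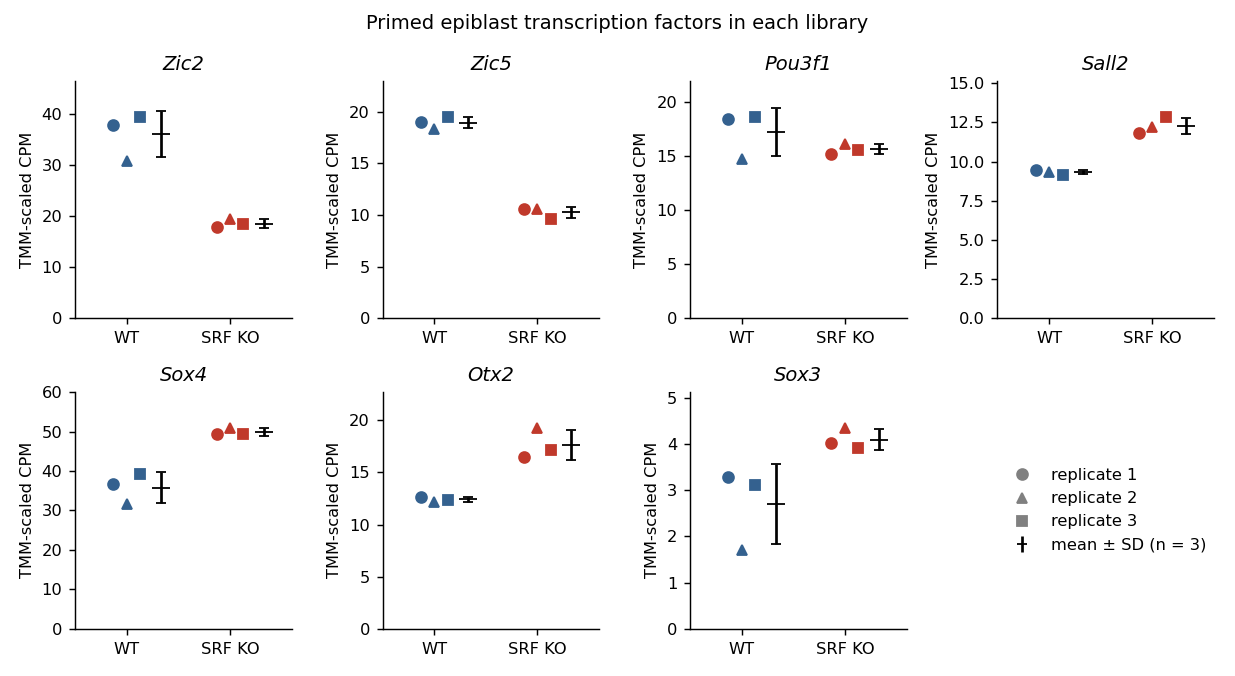
Level of each of the 7 genes (y axis, TMM-scaled CPM, from 0) in each WT and SRF KO library, with symbols for replicates 1 to 3 and the mean ± SD (n = 3) in black. Zic2 and Zic5 lie lower in all 3 SRF KO libraries, the groups overlap for Pou3f1, and WT replicate 2 is the lowest WT library for every gene but Sall2.

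Zic2 and Zic5 encode zinc finger factors of the same family. Zic2 is known for its part at enhancers of pluripotent cells and in forebrain development, and Zic5 for its part in neural crest and neural tube development. Zic2 had 17.8, 19.4 and 18.4 CPM in SRF KO replicates 1 to 3 and 37.9, 30.8 and 39.3 CPM in WT replicates 1 to 3. Every SRF KO library was thus lower than the lowest WT library, with means of 18.5 ± 0.812 and 36.0 ± 4.55 CPM (SD, n = 3). The log2 fold change of SRF KO over WT was -0.96 (standard error, SE, 0.09, edgeR adjusted p 7.7e-06), and 2.02% of the genes tested had a lower one. Zic5 had 10.6, 10.5 and 9.58 CPM in SRF KO and 18.9, 18.3 and 19.5 CPM in WT. The WT libraries lay close together, at 18.9 ± 0.553 CPM, and so did the SRF KO libraries, at 10.2 ± 0.572 CPM (SD, n = 3). For Zic5 the log2 fold change was -0.89 (SE 0.08, edgeR adjusted p 3.7e-06).

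The pair fell by similar shares. Per count of Zic2 there were 0.530 ± 0.0566 counts of Zic5 in WT against 0.554 ± 0.0387 in SRF KO (SD, n = 3), a ratio that needs no scaling between libraries. By replicate, from 1 to 3, it was 0.500, 0.595 and 0.495 in WT against 0.596, 0.544 and 0.521 in SRF KO. The groups overlapped through WT replicate 2 only, and without it every SRF KO ratio was above the WT ratios. Every SRF KO library was above all WT libraries for Sox4 and Otx2 and below them for Zic2. The ratios of Sox4 and Otx2 to Zic2 thus could not overlap, and they give only the size of the shift. Sox4 counts per count of Zic2 were 0.966, 1.02 and 0.998 in WT replicates 1 to 3 against 2.78, 2.63 and 2.68 in SRF KO replicates 1 to 3. Otx2 counts per count of Zic2 were 0.348 ± 0.0417 in WT against 0.952 ± 0.0362 in SRF KO (SD, n = 3).

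Zic5 and Zic2 lie beside each other on chromosome 14 and are transcribed away from each other. In GENCODE M21 on GRCm38, the assembly of the mm10 build named in the submitters' processing notes, Zic5 spans chr14:122456795-122465677 on the minus strand and Zic2 chr14:122475435-122479852 on the plus strand, with 9.76 kb between their starts. The 250 bases before the RefSeq start of Zic5 (build GRCm38.p6, chr14:122465659-122465908, minus strand) lie on the side that faces Zic2 and are shown because this pair holds the falls. Capitals would mark a match to any of the 5 motifs described with Sox4, and the window has none.
Zic5: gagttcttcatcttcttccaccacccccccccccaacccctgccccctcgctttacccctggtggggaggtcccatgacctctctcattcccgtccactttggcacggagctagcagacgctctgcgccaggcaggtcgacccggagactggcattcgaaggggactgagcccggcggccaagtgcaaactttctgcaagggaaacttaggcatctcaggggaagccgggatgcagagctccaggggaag

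Since neighbouring genes were not part of the choice, the 4 tested genes on each side of the pair were read out, chosen by position after the values of the pair were known. The next gene before the pair, Clybl, a citramalyl-CoA lyase of mitochondria, was at 23.0 ± 1.79 CPM in WT against 12.1 ± 0.807 CPM in SRF KO (SD, n = 3) and changed by -0.93 on the log2 scale (SE 0.08, edgeR adjusted p 5.46e-06). The next gene after it, Pcca, a subunit of mitochondrial propionyl-CoA carboxylase, was at 24.9 ± 0.610 CPM against 17.3 ± 1.07 CPM (SD, n = 3) and changed by -0.52 (SE 0.07, edgeR adjusted p 0.000136). Thus 4 tested genes in a row, Clybl, Zic5, Zic2 and Pcca, were lower in SRF KO, of which Zic5 and Zic2 were already known to be lower. Beyond them, Tm9sf2 and Ggact were higher, at 0.28 and 0.38, Tmtc4 was lower at -0.30, and Timm8a2, A330035P11Rik and Nalcn did not pass the threshold. Of the 8 genes read out beside the pair, 2 were thus higher and 3 lower, against 21.2% and 21.3% of all genes. Next to all 7 factors there were 12 different tested flanking genes that were not among the 7, of which 3 were higher and 3 lower, a share near the 42.4% of all genes.

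**Figure D2:**
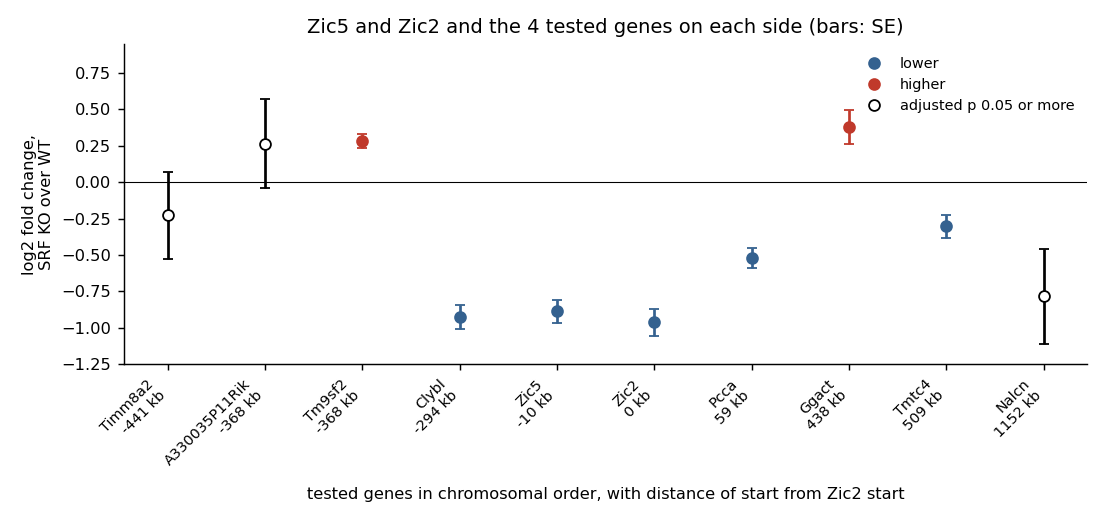
Log2 fold change of SRF KO over WT (y axis, bars SE) of Zic5, Zic2 and the 4 tested genes on each side, in chromosomal order along the x axis with the distance of each start from that of Zic2 in kb. Clybl, Zic5, Zic2 and Pcca are lower, at -0.93, -0.89, -0.96 and -0.52, between Tm9sf2 and Ggact, which are higher.

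Otx2 encodes a homeodomain factor that is needed for the exit from the naive state and for head formation. It had 16.5, 19.3 and 17.2 CPM in SRF KO replicates 1 to 3 and 12.7, 12.2 and 12.4 CPM in WT replicates 1 to 3. All SRF KO libraries were above all WT libraries, and the WT libraries hardly differed, with means of 17.6 ± 1.44 and 12.4 ± 0.255 CPM (SD, n = 3). The log2 fold change was 0.51 (SE 0.08, edgeR adjusted p 0.000407). Its gene lies at chr14:48657677-48673819 on the minus strand (GRCm38). An RNA on the opposite strand, Otx2os1, shares 154 exon bases with it and had at most 5 counts in any library, against 313 or more for Otx2. A short annotated transcript of the same strand, Gm49154, shares 168 exon bases and was not analysed here.

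Otx2 is also expressed in visceral endoderm, and markers of extraembryonic endoderm were set beside it. All 17 tested extraembryonic endoderm markers, of 18 listed, were higher in SRF KO, against 21.2% of all genes. The list was chosen with earlier results of these data known. The median log2 fold change of these markers was 3.83, also with Ttr, whose WT libraries were all at 0, set to its lower bound. Their summed level was between 2853 and 3039 CPM in the SRF KO libraries and between 383 and 406 CPM in the WT libraries. Afp had at most 3 counts in every library. The endocytic receptor genes Cubn and Lrp2 rose by 5.88 and 3.89 on the log2 scale, their adaptor Dab2 by 3.68 and the laminin chain Lama1 by 2.76. The part of such cells in the rise of Otx2 was not tested.

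Pou3f1, also known as Oct6, encodes a POU domain factor of the early primed state that later acts in neural cells and myelinating glia. It had 15.2, 16.1 and 15.5 CPM in SRF KO and 18.4, 14.7 and 18.6 CPM in WT, with means of 15.6 ± 0.471 and 17.2 ± 2.21 CPM (SD, n = 3). The groups overlapped because WT replicate 2 was lower than every SRF KO library, while the other WT libraries were higher. The log2 fold change was -0.15 (SE 0.09, edgeR adjusted p 0.236), with a 95% confidence interval from -0.35 to 0.06. Without WT replicate 2 it was -0.24 and passed the threshold (edgeR adjusted p 0.00762), so that the call for this gene rests on that library. Pou3f1 has a single exon at chr4:124656807-124660655 on the plus strand (GRCm38), of which 330 bases are shared with Gm2164, an antisense RNA that was not analysed here.

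Sox4 is a SoxC factor, a high mobility group protein of progenitor cells in many lineages, and had the highest level per length of the 7 in SRF KO. It had 49.4, 50.9 and 49.3 CPM in SRF KO and 36.6, 31.5 and 39.3 CPM in WT. All SRF KO libraries were above all WT libraries, with means of 49.9 ± 0.908 and 35.8 ± 3.93 CPM (SD, n = 3), and the log2 fold change was 0.48 (SE 0.07, edgeR adjusted p 0.000378). Its single exon lies at chr13:28948919-28953713 on the minus strand (GRCm38) and shares 2616 bases with an annotated RNA of the opposite strand, Gm26735. Whether counting used strand is not given in the sources used here, so that reads of Gm26735 cannot be told apart from those of Sox4.

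Sox4 is also a gene of mesenchymal cells, and fibroblast and feeder markers were set beside it. All 16 of these markers were higher in SRF KO, against 21.2% of all genes, with a median log2 fold change of 1.11. Their list was chosen with earlier results of these data known. Their summed level was between 1816 and 2183 CPM in the SRF KO libraries and between 922 and 1054 CPM in the WT libraries. None was at or under 3 counts throughout. The microfibril gene Fbn1 rose by 1.38, the collagens Col5a2 and Col3a1 by 1.22 and 1.09, and the mesenchymal homeobox gene Prrx1 by 1.13 on the log2 scale. The part of such cells in the rise of Sox4 was not tested.

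The 250 bases before the RefSeq start of Sox4 (build GRCm38.p6, chr13:28953700-28953949, minus strand) are shown as the window of the most abundant riser. Capitals mark CCAAT, or its reverse complement, at 4 places.
Sox4: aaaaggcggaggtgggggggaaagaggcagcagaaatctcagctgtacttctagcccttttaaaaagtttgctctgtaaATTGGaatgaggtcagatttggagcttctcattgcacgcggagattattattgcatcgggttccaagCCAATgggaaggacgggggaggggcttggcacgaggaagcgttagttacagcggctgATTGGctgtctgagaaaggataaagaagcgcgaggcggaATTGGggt
The table of RefSeq start sites matched 4 of the 7 genes, Otx2, Sall2, Sox4 and Zic5, with 8 windows, since Otx2 and Sall2 have several starts. Each window was searched on both strands for 5 motifs, of which the CArG box can hold the letters TATAAA or CCAAT and the others do not contain each other. The CArG box, the site that SRF is known to bind, matched in 0 of the 8 windows and in 1.47% of all 32851 windows of this length. The octamer ATGCAAAT, known for POU factors, matched in 0 of 8 and in 1.6% of all. GGGCGG matched in 0 of 8 against 32.7%, CCAAT in 3 of 8 against 33.8% and TATAAA in 2 of 8 against 12.4%. These counts describe letters in the windows only, and the windows leave out distant enhancers.

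Sox3 is a SoxB1 factor on the X chromosome, expressed in epiblast and neural progenitors, and it was the lowest of the 7 per length in both groups. Its single exon lies at chrX:60891366-60893430 on the minus strand (GRCm38). SRF KO replicates 1 to 3 held 108, 115 and 113 counts of it and WT replicates 1 to 3 held 119, 44 and 89, which is 4.01, 4.34 and 3.91 CPM against 3.29, 1.71 and 3.10 CPM. The groups did not overlap, but WT replicate 2 lay far below the other WT libraries, so that the WT spread was wide, at 2.70 ± 0.862 CPM against 4.09 ± 0.228 CPM (SD, n = 3). Its log2 fold change was 0.57 (SE 0.19, edgeR adjusted p 0.0337). Without WT replicate 2 the value dropped to 0.36 and still passed (edgeR adjusted p 0.0353). The call was lost without SRF KO replicate 1, 2 or 3, at 0.59, 0.53 and 0.60 (edgeR adjusted p 0.0744, 0.0897 and 0.0712). Its adjusted p was the largest of the 6 calls.

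Sall2 encodes a spalt-like zinc finger factor, related to the pluripotency factor SALL4, from chr14:52311172-52328762 on the minus strand (GRCm38). It had 11.8, 12.2 and 12.8 CPM in SRF KO and 9.47, 9.33 and 9.17 CPM in WT. The SRF KO libraries were all higher, and the spread was small in both groups, with means of 12.3 ± 0.509 and 9.32 ± 0.152 CPM (SD, n = 3). The log2 fold change was 0.40 (SE 0.08, edgeR adjusted p 0.00176), the smallest of the 4 rises.

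**Figure D3:**
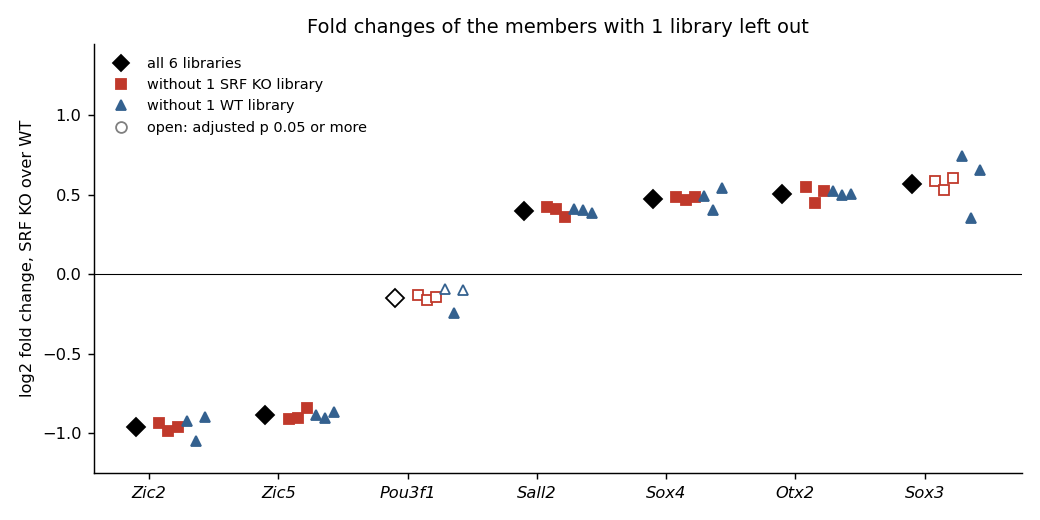
Log2 fold change of SRF KO over WT (y axis) of each gene with all 6 libraries (diamonds) and with 1 library left out (squares for SRF KO, triangles for WT), open where the adjusted p was 0.05 or more. All values keep their sign, Pou3f1 passes only without WT replicate 2 and Sox3 is open whichever SRF KO library is left out.

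To compare levels between genes, CPM were divided by exon length in kilobases. In WT the order was Zic2 at 12.5 ± 1.58, Sox4 at 7.46 ± 0.819, Pou3f1 at 4.48 ± 0.573, Zic5 at 3.87 ± 0.113, Otx2 at 2.94 ± 0.0605, Sall2 at 1.72 ± 0.0279 and Sox3 at 1.31 ± 0.417 CPM per kb (SD, n = 3). Of the neighbours in this order, only the libraries of Pou3f1 and Zic5 overlapped. That overlap rested on WT replicate 2, where Pou3f1 was at 3.82 and Zic5 at 3.75 CPM per kb. Within each WT library Pou3f1 was above Zic5. In SRF KO the order was Sox4 at 10.4 ± 0.189, Zic2 at 6.43 ± 0.282, Otx2 at 4.18 ± 0.341, Pou3f1 at 4.06 ± 0.122, Sall2 at 2.26 ± 0.0936, Zic5 at 2.09 ± 0.117 and Sox3 at 1.98 ± 0.110 CPM per kb (SD, n = 3). Here Otx2 and Pou3f1 overlapped, as did Zic5 and Sox3. Zic2 and Sox4 thus changed places at the top, and Zic5 went from the fourth place to the sixth.

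**Figure D4:**
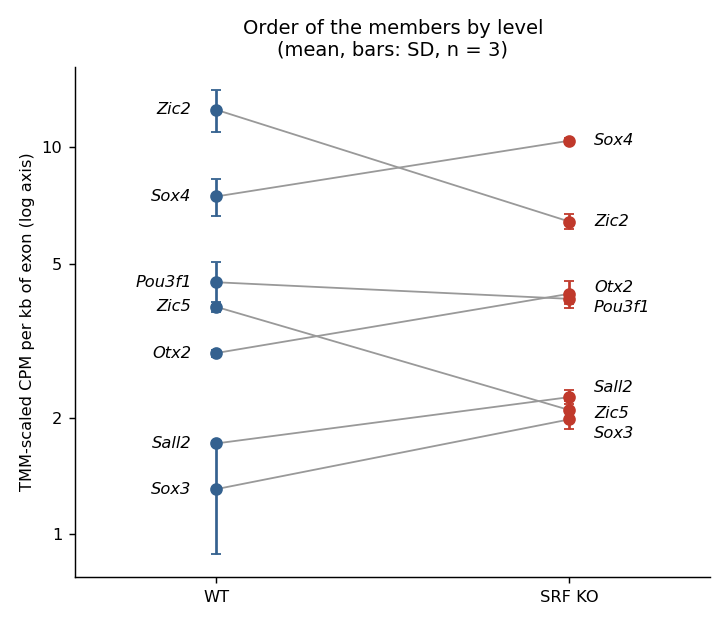
Level of each gene per length (y axis, TMM-scaled CPM per kb of exon, log axis) in WT and SRF KO, as mean with SD (n = 3), joined by a line for each gene. The lines of Zic2 and Sox4 cross, from 12.5 to 6.43 and from 7.46 to 10.4 CPM per kb, and the line of Zic5 crosses those of Otx2 and Sall2.

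The closest relatives of the 7 factors were read out by family. Of 14 paralogs, 9 passed the filter on low counts, of which 2 were higher and 2 lower, with a median log2 fold change of 0.08. These 4 of 9 are a share near the 42.4% of all genes called in either direction, and nothing particular to the families is read from it. Without WT replicate 2, 4 paralogs were lower, and without WT replicate 1, SRF KO replicate 1 or SRF KO replicate 2, 1 was higher. In the ZIC family, Zic1, at 8 to 50 counts, rose by 1.50 (SE 0.30, edgeR adjusted p 0.00169), and Zic4 had 7 counts or fewer in each library.

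In the SoxB1 group, Sox2, a core pluripotency factor, was at 468 ± 42.9 CPM in WT against 411 ± 25.2 CPM in SRF KO (SD, n = 3), and its log2 fold change of -0.19 missed the threshold (edgeR adjusted p 0.0506) and passed it without WT replicate 2 (-0.26, edgeR adjusted p 0.000212). Sox3 counts per count of Sox2 were 0.00669, 0.00408 and 0.00627 in WT replicates 1 to 3 against 0.00994, 0.00988 and 0.00999 in SRF KO replicates 1 to 3, which do not overlap. Sox1, a neural gene, had a log2 fold change of 0.10 (edgeR adjusted p 0.593). In the SoxC group, Sox12 fell by 0.44 (SE 0.08, edgeR adjusted p 0.00128) while Sox4 rose, and Sox11 was at 0.12 (edgeR adjusted p 0.142). Among SALL genes, Sall1 fell by 0.65 (SE 0.05, edgeR adjusted p 9.82e-07) while Sall2 rose, and Sall3 and Sall4 were at -0.15 and 0.08 (edgeR adjusted p 0.201 and 0.258). Otx1, at 6 to 17 counts, rose by 1.12 (SE 0.35, edgeR adjusted p 0.0221), a call that was lost without WT replicate 1 (0.85), SRF KO replicate 1 (0.99) or SRF KO replicate 2 (1.09). Crx, Pou3f2, Pou3f3 and Pou3f4 had 11 counts or fewer in each library.

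**Figure D5:**
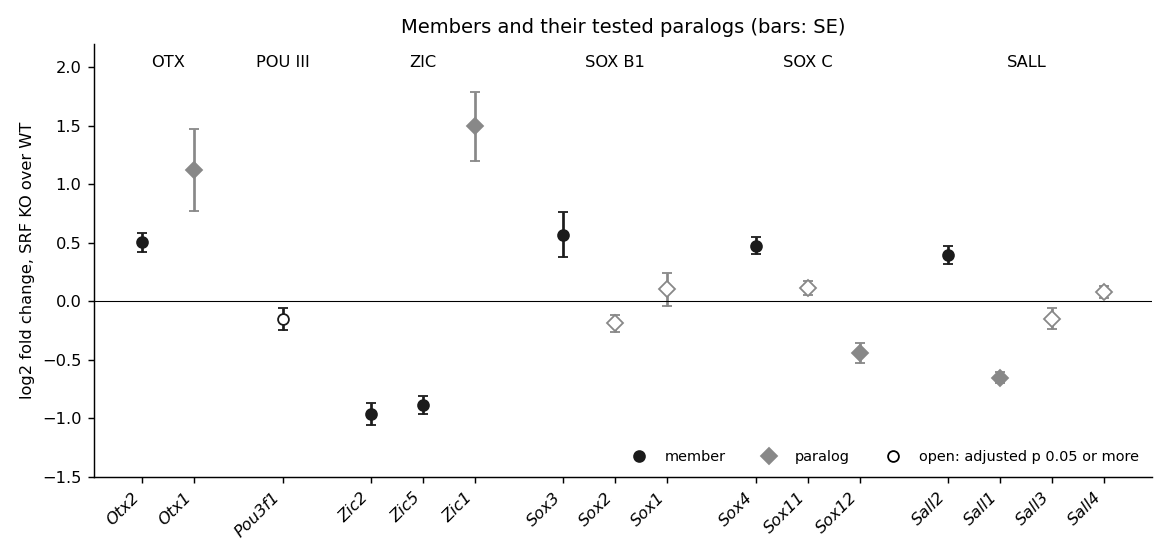
Log2 fold change of SRF KO over WT (y axis, bars SE) of the 7 genes (circles) and their 9 tested paralogs (diamonds) by family, open where the adjusted p was 0.05 or more. Zic2 and Zic5 are lower where Zic1 is higher, and Sox4 and Sall2 are higher where Sox12 and Sall1 are lower.

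Other genes of the primed and formative epiblast were taken from a list. Of 22 such genes, all tested, 6 were higher and 6 lower, and the median log2 fold change was 0.02. Over all genes 21.2% were higher and 21.3% lower, so that calls in both directions are not particular to this list. Dnmt3a, a de novo DNA methyltransferase, rose by 0.88 on the log2 scale, with 243 ± 0.942 CPM in WT against 447 ± 1.46 CPM in SRF KO (SD, n = 3). Cdh2, N-cadherin, rose by 0.93, with 9.12 ± 0.224 CPM against 17.4 ± 0.532 CPM (SD, n = 3). The Wnt effector Lef1 fell by 0.82, with 50.5 ± 0.863 CPM against 28.5 ± 0.168 CPM, and the kinase Pim2 fell by 0.92, with 34.7 ± 1.49 CPM against 18.4 ± 0.0370 CPM (SD, n = 3). Fgf5, the growth factor most used to mark the primed state and named after its values were seen, was at 1.98 ± 0.225 CPM in WT against 5.02 ± 0.505 CPM in SRF KO (SD, n = 3) and passed the threshold (edgeR adjusted p 1.68e-05).

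Factors of the naive state were set beside them. Without SRF, 3 of these 12 were higher and 6 lower, against 21.2% and 21.3% of all genes. The median log2 fold change of the 12 was -0.25. With each library left out in turn, 2 to 4 were higher, 6 to 7 were lower and the median lay between -0.319 and -0.177. Their summed level was between 2553 and 2573 CPM in the SRF KO libraries and between 3251 and 3415 CPM in the WT libraries. Nanog, Tfcp2l1 and Klf4 changed by -0.79, -0.70 and -0.52 on the log2 scale. Gbx2 went the other way, with 32.5 ± 1.33 CPM in WT against 61.2 ± 0.489 CPM in SRF KO (SD, n = 3). Of the 12 general pluripotency markers, 2 were higher and 4 lower, with a median of -0.10. For these markers the share called is near the 42.4% of all genes. Among them Dppa5a, Alpl and Epcam changed by -0.42, -0.42 and -0.31, and Fut4, with 0.911 ± 0.257 CPM in WT against 1.92 ± 0.455 CPM in SRF KO (SD, n = 3), rose by 1.06. Without WT replicate 2, 7 of these markers were lower.

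Neural markers were examined because most of the 7 genes are also neural. Of 16 listed, 10 passed the filter on low counts, 2 higher and 3 lower, with a median log2 fold change of -0.01, again a share near the 42.4% of all genes. Their summed level was between 141 and 144 CPM in the SRF KO libraries and between 156 and 162 CPM in the WT libraries. Nes and Neurod1 rose by 0.44 and 0.56, and Map2 and Elavl3 fell by 1.33 and 0.72 on the log2 scale. Dcx and Hes5 had at most 3 counts in every library.

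Finally, the genes whose log2(CPM + 1) followed each called factor most closely over the 6 libraries were listed, among 12337 genes with a mean of at least 50 counts. With Pearson r between 0.993 and 0.999, they were Wdr47 and Fam84a for Otx2, Sqle and Cln6 for Zic2, Dhrs7 and Arrb1 for Zic5, Micall1 and Spata2 for Sox3, Slc38a7 and Cd99l2 for Sox4, and Pipox and Chst11 for Sall2. All 6 libraries fall into the same pair of groups for every gene, and between 535 and 1904 genes had an r over 0.9 with a given factor, so that these names describe the ranking only.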

How the data were processed

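The authors sequenced paired reads of 150 bp on an Illumina HiSeq 2500 and removed adaptor, low-quality and empty reads, per the labels' protocols. The submitters' processing notes name the mm10 build and DESeq2, with no role given. The aligner, the counting program, the annotation and the use of strand are not given in the sources used here. The deposited table holds whole-number counts per gene and per transposable element subfamily, without normalization, judged from its values.

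All 15611 entries that passed edgeR's filterByExpr (minimum count 10) were fitted together with edgeR 4.0.16 in R 4.3.3, with TMM scaling, the quasi-likelihood test and Benjamini-Hochberg adjustment over all entries. The SE is the absolute log2 fold change, taken before the shrinkage that edgeR applies to the printed values, over the square root of the F statistic. The limit that 0 counts leave is 3 counts, or 0.0828 to 0.117 CPM in these libraries, for counting error only. Alternatives were DESeq2 1.42.0, limma-voom 3.58.1, other scaling, no filter on low counts, gene entries alone, a replicate block, an adjusted p of 0.01 and each library left out. The code was tested on simulated data.

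The 7 genes and the lists were chosen with earlier results of these data known. Named genes are the 7, all listed paralogs, the genes with the smallest p past the threshold on each list (at most 4), genes that overlap the 7, Srf, and the 2 genes closest to each called factor over the 6 libraries. Outside this rule, and after their values were seen, the text names Fgf5, Pou5f1, the genes beside Zic5 and Zic2, and list genes at or near 0 counts in a group (Ttr) or in both (Afp, Dcx and Hes5). A listed gene is not reported here and is left out of the list counts. Lists share Sall3 and Sox11 (other epiblast genes and paralogs), Sox2 and Sall4 (paralogs and general markers), Lin28a and Utf1 (epiblast and general markers) and Sox1 (paralogs and neural markers).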

Additional observations from a re-analysis of the deposited data

How the results depend on the processing

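Under all alternatives run, the fold changes of the 7 genes and of Srf kept their sign, and Otx2, Zic2, Zic5, Sox4, Sall2 and Srf kept their side of the threshold. Sox3, at 0.57, did not pass an adjusted p of 0.01. With each library left out in turn, Sox3 was between 0.36 and 0.75 and Pou3f1 between -0.241 and -0.0936, genes of the 7 higher were between 3 and 4 and lower between 2 and 3, paralogs higher were between 1 and 2 and lower between 2 and 4, and general pluripotency markers higher were between 1 and 2 and lower between 3 and 7. Paralogs higher numbered 1 with DESeq2 and at an adjusted p of 0.01. General markers higher numbered 1 at an adjusted p of 0.01, with gene entries alone and when genes with low counts were kept. The neural median, at -0.01, turned to 0.0251 with total counts only and lay between -0.0856 and 0.0116 (without WT replicate 1) as libraries were left out, and Sox1 between -0.0111 (without WT replicate 1) and 0.19. The median of the other epiblast genes lay between -0.0113 (without SRF KO replicate 2; -0.00713 without WT replicate 2) and 0.0355, and that of the paralogs between -0.0111 (without WT replicate 1) and 0.11. The cause was not tested. Deviations from the group means correlated at 0.07, 0.40 and 0.25 between libraries of the same number and 4 of 6 libraries correlated best with their own number, so that the numbers were not taken to pair them. With a replicate block 4 of the 7 genes were higher and 2 lower, and Sox3 was at 0.59. Sox3 had 44 counts in WT replicate 2, with a total of 26321602, and 115 in SRF KO replicate 2, with a total of 26413409, so that these totals do not set them apart. Counting error is widest for the rarer paralogs, such as Otx1 at 6 to 17 counts.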
